A study of Mus musculus with 6 samples.

Results

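The genes described here encode enzymes that make prostaglandins and leukotrienes, a partner protein, an enzyme that breaks down a related lipid, and a prostaglandin receptor. They were measured in macrophages sorted from Day 3 skin wounds of young and aged mice. The members were chosen by gene symbol, as Ptgs1, Ptgs2, Ptges, Tbxas1, Alox5, Alox5ap, Ltc4s, Lta4h, Pla2g7 and Ptger4. All 10 of the 10 listed symbols were among the 15168 genes of the count table, and all 10 passed the filter on low counts that left 11878 genes for the test.

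Both groups were female wild-type C57BL/6J mice that received 2 full-thickness wounds of 10 mm on the back. The young group was 12 weeks old and the aged group 24 months old, with 3 samples each (sets A, B and C), all taken 3 days after wounding. Cells positive for CD45, CD11b, F4/80 and CD64 were sorted, and their RNA was sequenced to ask how ageing changes the transcripts of wound macrophages. Ly6G was not used in the sort, and marker genes of neutrophils are therefore given with the results. Mice of the study were kept at 2 sites, and which site and how many mice stand behind each sample is not given in the sources used here. The sample labels do not say that the samples come from separate animals, so p-values measure the spread between these samples, which may be technical. Totals ran from 15270103 expected counts (aged A) to 17927483 (aged C), and a single count corresponded to 0.0553 to 0.0701 CPM (a gene's share of all counts of its sample, after scaling of the library sizes). Transcripts of the sort proteins were present in every sample, from 172 CPM for Adgre1 (F4/80) in aged A to 822 CPM for Itgam (CD11b) in the same sample.

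Prostaglandins and leukotrienes are lipid signals made from arachidonic acid after phospholipases free it from membranes. Cyclooxygenases turn it into the unstable intermediate PGH2, from which terminal synthases make PGE2, thromboxane and other prostanoids, while 5-lipoxygenase with its partner protein makes LTA4, the precursor of LTB4 and LTC4. In wounded skin PGE2 is known to widen vessels and to restrain or promote inflammation depending on the receptor, and LTB4 attracts neutrophils.

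The clearest differences lay at 3 enzymes. Ptgs2, Ptges and Ltc4s rose in aged macrophages at an adjusted p under 0.05 (edgeR quasi-likelihood test, Benjamini-Hochberg over all 11878 genes), and 0 members fell. Among all tested genes 9.73% were higher and 7.97% were lower by the same rule, and since the genes were chosen with earlier results of these data known, nothing is drawn from that difference. One further member, Tbxas1, was lower at an unadjusted p under 0.05, and DESeq2 and limma-voom also gave 3 higher and 0 lower members. With a change of more than 2-fold asked for as well, Ptgs2 and Ltc4s were left, beside 4.59% of all tested genes higher and 4.20% lower. In Ptgs2, Ptges and Ltc4s every aged sample lay above every young sample, which held for 19.2% of all tested genes, and in Tbxas1 every aged sample lay below every young sample, which held for 19.0%. The median log2 fold change was 0.16 over the members and -0.02 over all tested genes. These calls were sensitive to single samples: the number of members called was 1 without young B, and 0 without young C or without aged C, where 3 members were still higher at an unadjusted p under 0.05 in edgeR.

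**Figure D1:**
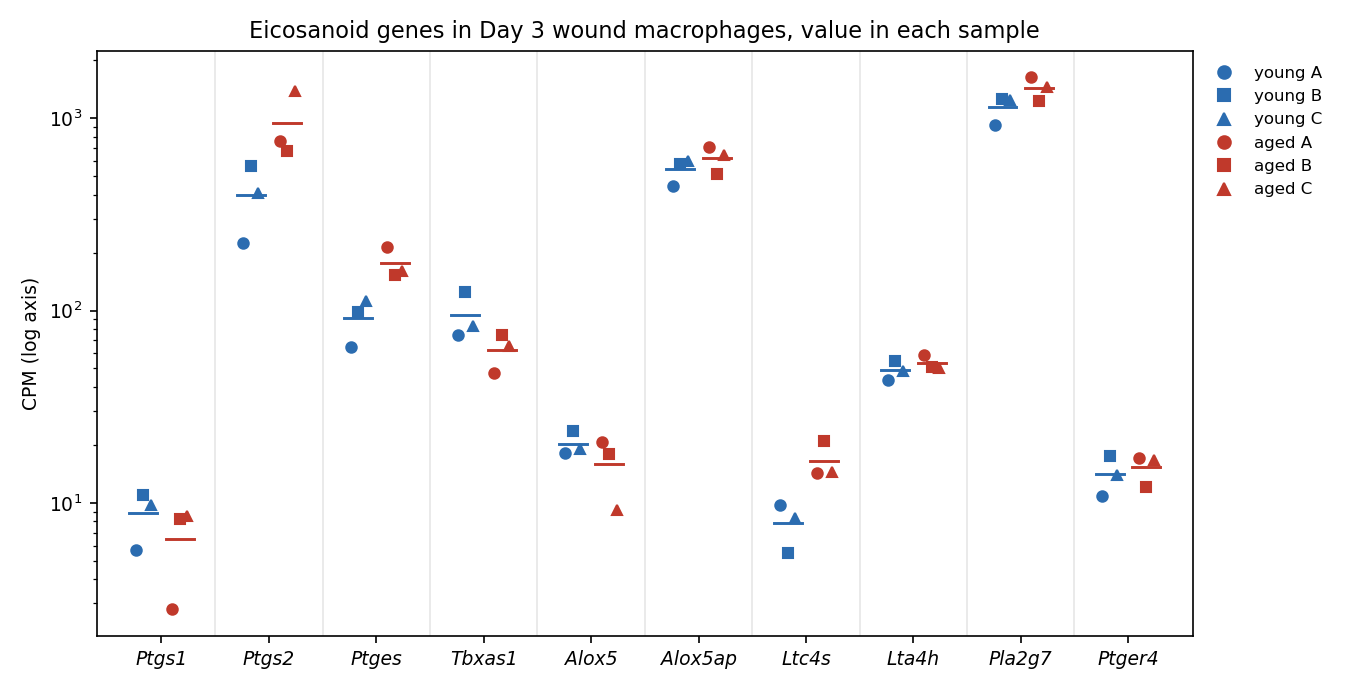
Level of each gene in CPM on a log axis, with a point for each of the 3 young (blue) and 3 aged (red) samples and a line at the mean of each age. The aged samples lie above all young samples in Ptgs2, Ptges and Ltc4s and below them in Tbxas1, and the ages overlap in the other 6 genes.

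Cyclooxygenases take the first step from arachidonic acid to prostanoids. Ptgs2 (chr1:150100031-150108227, + strand, mm10) encodes COX-2, the inducible form that inflammatory stimuli switch on in macrophages. It was measured at 225 CPM in young A, 562 CPM in young B and 411 CPM in young C, against 761 CPM in aged A, 678 CPM in aged B and 1388 CPM in aged C. The ages did not overlap, but both spread widely, with young A lowest and aged C highest, and the gap between young B and aged B was small beside that spread. The mean rose from 399 ± 169 to 942 ± 388 CPM (SD, n = 3), a log2 fold change of 1.24 (standard error 0.35, 95% interval 0.46 to 2.01, edgeR adjusted p = 0.0367). The adjusted p of Ptgs2 was 0.0559 without young A, 0.126 without young C and 0.142 without aged C, and under 0.05 without each of the other 3 samples.

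Ptgs1 (chr2:36230426-36252272, + strand) encodes COX-1, the form that most tissues make at a steady level. It was scarce, at 5.70, 11.0 and 9.71 CPM in young A, B and C and at 2.80, 8.22 and 8.52 CPM in aged A, B and C. The ages overlapped, and aged A, with 40 counts, was the lowest sample. Its log2 fold change was -0.43 (95% interval -1.31 to 0.45, edgeR adjusted p = 0.476).

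Per kilobase of transcript, the scale on which levels of different genes can be set side by side, Ptgs2 exceeded Ptgs1 in every sample. The ratio of Ptgs2 to Ptgs1 was 25.4, 32.8 and 27.3 in young A, B and C. Aged A reached 175, aged B 53.1 and aged C 104.9. Every aged ratio was above every young one, most of all in aged A, where Ptgs1 was lowest. These ratios are descriptions and were not tested.

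Terminal synthases decide which prostanoid is made from PGH2. Ptges (chr2:30889471-30929863, - strand) encodes the inducible microsomal PGE2 synthase, which often works together with COX-2. It was measured at 64.9, 98.4 and 112 CPM in young A, B and C and at 215, 154 and 160.0 CPM in aged A, B and C. The lowest aged sample stood well above the highest young one, and aged A was the highest of all. The rise of Ptges was 0.94 on the log2 scale (standard error 0.23, 95% interval 0.44 to 1.44, edgeR adjusted p = 0.0221), or 1.92-fold and thus short of the 2-fold threshold. Its adjusted p exceeded 0.05 without young B (0.0614), young C (0.0621), aged A (0.0567) or aged C (0.0589).

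Tbxas1 (chr6:38875404-39084585, + strand) encodes thromboxane synthase, which makes the platelet activator and vessel constrictor thromboxane A2 and is made by macrophages as well as platelets. Its level was 74.8 CPM in young A, 125 CPM in young B and 83.5 CPM in young C, and 47.4, 74.2 and 65.5 CPM in aged A, B and C. The ages were separated only just, by the gap between aged B and young A. The log2 fold change of Tbxas1 was -0.60 (standard error 0.23, 95% interval -1.12 to -0.08), which did not pass after adjustment over all genes (edgeR adjusted p = 0.0971). Without young A the adjusted p was 0.0468, and without each of the other samples it lay between 0.0891 and 0.331. With the set letter as a replicate block in edgeR the adjusted p was 0.0412.

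The PGE2 synthase and the thromboxane synthase were also set against each other per kilobase. The ratio of Ptges to Tbxas1 was 1.08, 0.983 and 1.68 in young A, B and C, and 5.68, 2.59 and 3.05 in aged A, B and C. Every aged ratio was above every young one, with aged A highest. This order adds nothing new, since every aged sample was already higher for Ptges and lower for Tbxas1. The size of this ratio, though not its order between samples, depends on the length used, since per kilobase of the median transcript Ptges stood at 147 and Tbxas1 at 47.5 in young macrophages.

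**Figure D2:**
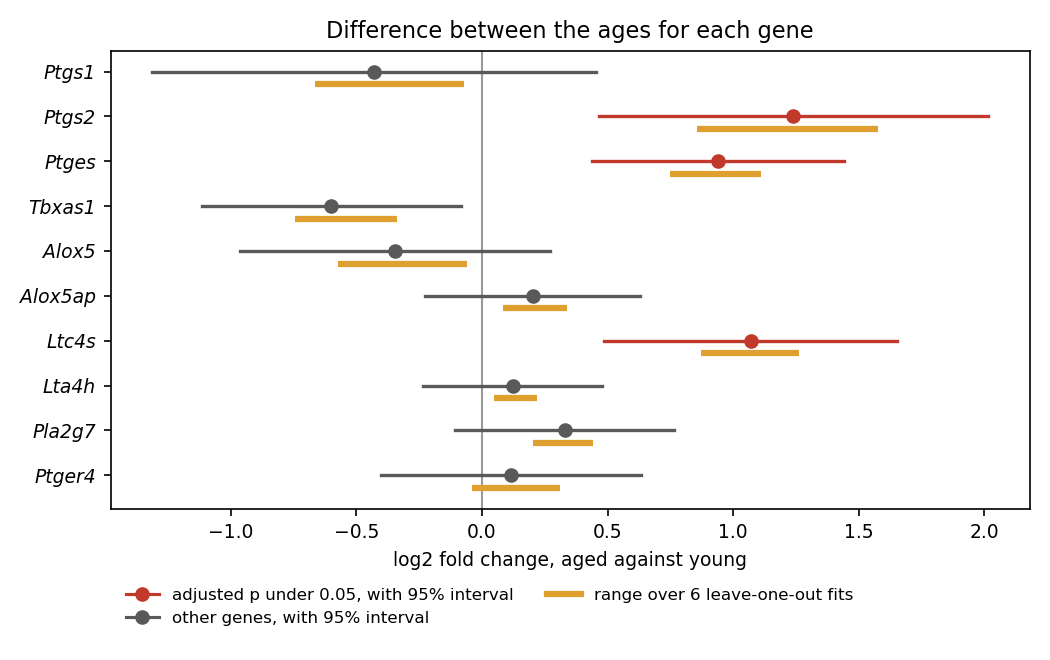
Log2 fold change of each gene, aged against young, with its 95% interval (red where the adjusted p was under 0.05) and, as an orange bar, the range over the 6 fits that each left out 1 sample. Ptgs2 lies at 1.24, Ptges at 0.94, Ltc4s at 1.07 and Tbxas1 at -0.60, and the intervals of the other 6 genes include 0.

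Leukotrienes start from 5-lipoxygenase. Alox5 (chr6:116410077-116461178, - strand), which encodes this enzyme, was measured at 18.1, 23.7 and 19.1 CPM in young A, B and C and at 20.7, 18.02 and 9.20 CPM in aged A, B and C. The ages overlapped, and aged C was below all others. Its log2 fold change was -0.35 (95% interval -0.96 to 0.27, edgeR adjusted p = 0.407).

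Alox5ap (chr5:149264767-149288153, + strand) encodes FLAP, the membrane protein that hands arachidonic acid to 5-lipoxygenase. It was abundant, from 446 CPM (young A) to 599 CPM (young C) in young and from 513 CPM (aged B) to 710.4 CPM (aged A) in aged macrophages. The ages overlapped, with a log2 fold change of 0.20 (95% interval -0.23 to 0.63, edgeR adjusted p = 0.491). Per kilobase Alox5ap exceeded Alox5 by 70.5, 70.1 and 89.6 times in young A, B and C and by 97.9, 81.3 and 201 times in aged A, B and C, and here the ages overlapped.

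From LTA4 the path divides. Lta4h (chr10:93453411-93484875, + strand), which encodes the hydrolase that makes LTB4, varied little, from 43.5 to 54.8 CPM in young and from 50.5 to 58.5 CPM in aged samples. Its log2 fold change was 0.12, and the 95% interval of -0.23 to 0.48 was the narrowest of the 10 genes (edgeR adjusted p = 0.622).

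Ltc4s (chr11:50236461-50238616, - strand) encodes LTC4 synthase, which joins LTA4 to glutathione and so opens the path to the cysteinyl leukotrienes, known for making vessels leak. It was measured at 9.79, 5.51 and 8.39 CPM in young A, B and C and at 14.4, 21.0 and 14.5 CPM in aged A, B and C. The ages did not overlap, young B was lowest and aged B highest, and the values rest on 94 to 329 counts. Ltc4s rose by a log2 fold change of 1.07 (standard error 0.26, 95% interval 0.49 to 1.65, edgeR adjusted p = 0.0240). The adjusted p was 0.0696 without young B, 0.0925 without young C, 0.0598 without aged B and 0.0577 without aged C.

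The ratio of Ltc4s to Lta4h per kilobase was 1.01, 0.453 and 0.777 in young A, B and C and 1.11, 1.85 and 1.29 in aged A, B and C. All aged ratios were above all young ones, though aged A was close to young A. The size of this ratio, though not its order between samples, depends on the length used. Per kilobase of the median transcript Ltc4s stood below Lta4h in both ages, at 12.7 against 71.1 in young and 26.7 against 77.4 in aged macrophages. In the annotation an antisense gene, Gm26542, shares 268 exon bases with Ltc4s, and the sources used here leave unsaid if reads were counted by strand. Gm26542 was at or below 0.420 CPM in every sample.

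**Figure D3:**
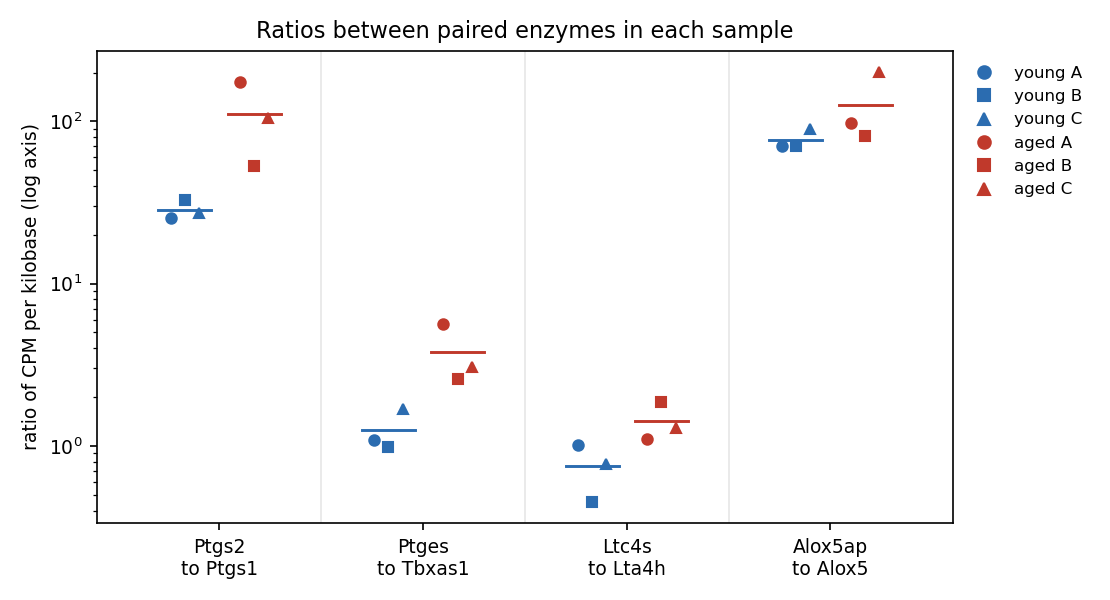
Ratio of the CPM per kilobase of the first gene to that of the second in each sample, on a log axis, with a line at the mean of each age. Every aged sample lies above every young one for Ptgs2 to Ptgs1, Ptges to Tbxas1 and Ltc4s to Lta4h, whereas the ages overlap for Alox5ap to Alox5. For Ptges to Tbxas1 the separation follows from that of each gene alone.

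The remaining members act on a related lipid or receive the signal. Pla2g7 (chr17:43568098-43612201, + strand) encodes the secreted hydrolase that inactivates platelet-activating factor. With 926 CPM (young A) to 1256 CPM (young B) and 1225 CPM (aged B) to 1633 CPM (aged A) it had the highest level, and the ages overlapped (log2 fold change 0.33, 95% interval -0.11 to 0.76, edgeR adjusted p = 0.261). Ptger4 (chr15:5206661-5244187, - strand) encodes EP4, a PGE2 receptor that raises cyclic AMP. It was low, at 10.9 to 17.5 CPM in young and 12.1 to 17.2 CPM in aged samples, and no difference was detectable (log2 fold change 0.12, 95% interval -0.40 to 0.63, edgeR adjusted p = 0.757), with a sign that turned without young A (-0.04). Ptger4 shares 82 exon bases with Ttc33 on the other strand, which was itself at 16.4 to 22.9 CPM. It shares 1015 of 6648 exon bases with the pseudogene Gm15937, also on the other strand and absent from the count table. Unless reads were counted by strand, which is not stated, part of these counts cannot be assigned to any of these genes with certainty.

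In order of level per kilobase in young macrophages the members ran from Pla2g7 (545 CPM per kilobase) and Alox5ap (433) through Ptgs2 (89.6), Ptges (25.2), Tbxas1 (20.7), Lta4h (15.2) and Ltc4s (11.0) to Alox5 (5.67), Ptger4 (3.75) and Ptgs1 (3.07). Samples of neighbours overlapped between Pla2g7 and Alox5ap, all along the run from Ptges to Ltc4s, and between Ptger4 and Ptgs1. In aged macrophages Ltc4s (23.2 CPM per kilobase) stood above Lta4h (16.5) and Tbxas1 (13.7), and its samples overlapped neither neighbour in the order. Ptgs2 held place 3 in both ages, and among the tested genes with a known transcript length it ranked 732 in young and 352 in aged macrophages. Other places depended on the length used: with the median in place of the longest transcript of each gene, Ltc4s stayed below Lta4h and Tbxas1 in both ages, and Ptgs1 came before Alox5 and Ptger4.

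The promoters of the 3 called genes are shown because they moved in the same direction. Promoter sequences (RefSeq, GRCm38.p6, 250 bases before to 50 bases after the start) were found for 9 of the 10 members, all but Alox5ap. Capitals mark every match, on either strand, to a listed motif. The motifs were the TATA box TATAAA, the GC box GGGCGG, the AP-1 motif TGANTCA, the cyclic AMP element TGACGTCA, the C/EBP palindrome TTGCGCAA and its loose form TTNNGNAA, the ETS motif GAGGAA, and the kappaB consensus. The Ptgs2 promoter is chr1:150099781-150100080 on the + strand, that of Ptges is chr2:30903248-30903547 on the - strand and that of Ltc4s is chr11:50238483-50238782 on the - strand. The start used for Ptges lies inside the gene's interval, because another annotated transcript begins further upstream.
Ptgs2: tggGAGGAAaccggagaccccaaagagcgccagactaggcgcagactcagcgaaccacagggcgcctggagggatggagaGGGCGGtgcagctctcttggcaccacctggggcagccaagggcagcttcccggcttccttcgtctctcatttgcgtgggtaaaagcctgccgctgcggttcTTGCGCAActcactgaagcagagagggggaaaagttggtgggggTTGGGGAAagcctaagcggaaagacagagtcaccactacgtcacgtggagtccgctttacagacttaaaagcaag
Ptges: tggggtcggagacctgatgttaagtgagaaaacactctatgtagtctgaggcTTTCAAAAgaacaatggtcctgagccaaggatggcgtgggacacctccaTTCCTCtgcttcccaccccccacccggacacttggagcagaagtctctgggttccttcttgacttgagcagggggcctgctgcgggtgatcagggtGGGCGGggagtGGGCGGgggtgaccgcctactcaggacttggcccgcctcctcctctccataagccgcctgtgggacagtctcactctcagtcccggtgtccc
Ltc4s: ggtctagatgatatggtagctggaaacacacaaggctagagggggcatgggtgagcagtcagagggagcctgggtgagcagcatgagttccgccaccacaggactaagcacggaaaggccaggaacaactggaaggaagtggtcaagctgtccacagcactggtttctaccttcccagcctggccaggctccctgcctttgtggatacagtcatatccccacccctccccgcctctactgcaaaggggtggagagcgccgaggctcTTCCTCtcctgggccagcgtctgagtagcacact

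The palindrome TTGCGCAA lies in the Ptgs2 promoter from -69 to -62, counted from the start, and was found in 0.183% of all 32817 promoters and in none of the other 8 members searched. It is also a match to TTNNGNAA, which occurs in 40.7% of promoters and has a second match in Ptgs2 from -25 to -18 and 1 in Ptges from -198 to -191. GGGCGG, present in 35.6% of promoters, occurs once in Ptgs2 (-170 to -165) and at 2 places in Ptges (-53 to -48 and -42 to -37), and in 5 of the 9 members overall. GAGGAA, present in 28.3% of promoters, was the one motif found in all 3, in Ptgs2 from -247 to -242, in Ptges from -149 to -144 and in Ltc4s from 17 to 22, and it occurs in 7 of the 9 members. TATAAA (13.6% of promoters) and TGANTCA (7.81%) each occurred among the members in Tbxas1 alone. TGACGTCA (1.79%) and the kappaB consensus (4.50%) had no match in these windows. A match describes letters, not a bound site.

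Other genes of the pathway were counted in lists written from general knowledge, with 64 genes tested beside the members. Of these 12 rose and 11 fell (edgeR adjusted p under 0.05), where 9.73% of all tested genes were higher and 7.97% lower, and the median log2 fold change was -0.13. No set test was made. The counts depended on single samples. With young B left out they were 7 higher and 4 lower, with young C 3 and 2, with aged A 8 and 4, with aged B 10 and 6, with aged C 6 and 1, and with young A 13 and 11.

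**Figure D4:**
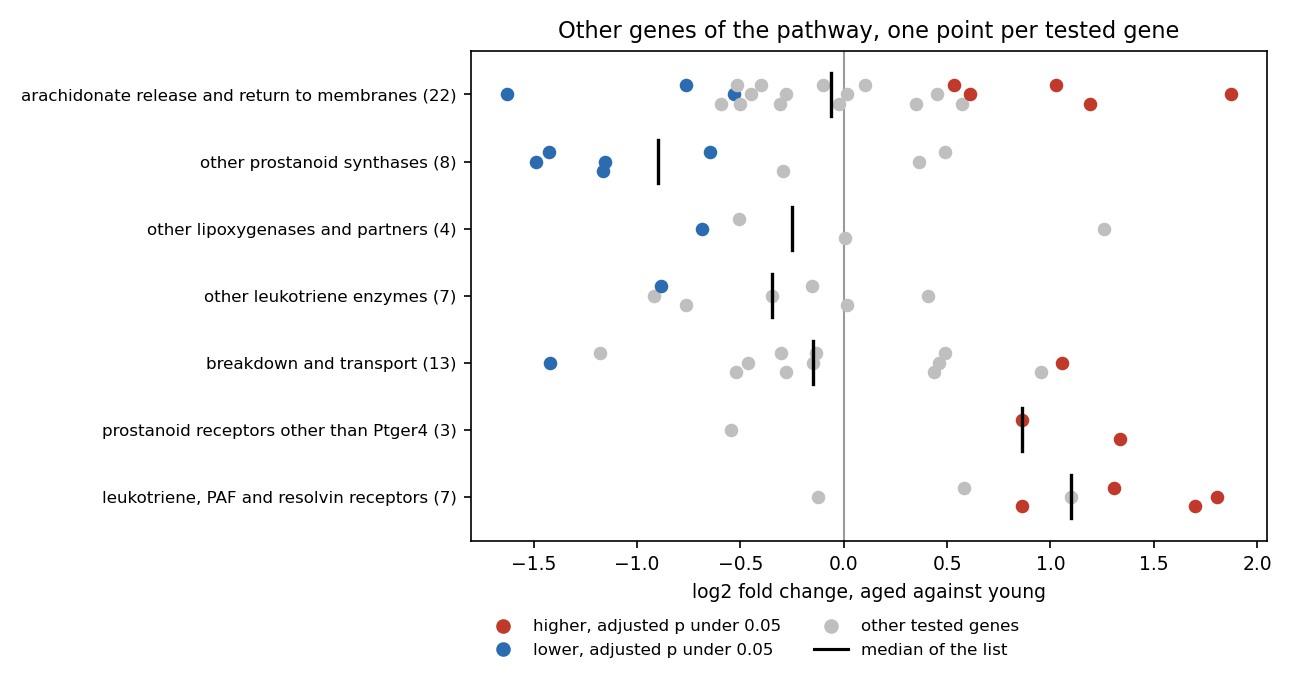
Log2 fold change, aged against young, of each tested gene of the pathway lists, with the number of tested genes in brackets and a black line at the median of the list. Genes with an adjusted p under 0.05 are red when higher and blue when lower in aged macrophages. The median is -0.90 for the other prostanoid synthases and 1.10 for the list named for receptors of leukotrienes, platelet-activating factor and resolvins, which also holds Fpr1.

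Among 22 genes that release arachidonic acid from membranes or return it to them, 5 rose and 3 fell, with a median of -0.06. Pla2g4a, which encodes the cytosolic phospholipase that supplies most arachidonic acid for eicosanoids, was measured at 26.1, 43.5 and 32.0 CPM in young A, B and C and at 87.3, 70.8 and 73.9 CPM in aged A, B and C. Every aged sample lay above every young one, and the log2 fold change was 1.19 (standard error 0.21, edgeR adjusted p = 0.00809). Pla2g4a is the nearest protein-coding gene on one side of Ptgs2, 138740 bases away and on the other strand. Acsl4 and Acsl1, which activate arachidonic and other fatty acids, rose as well (log2 fold changes 1.03 and 0.61), as did Lpcat3 (0.53), which puts arachidonic acid back into phospholipids, and the lipase Mgll (1.87), which stayed at or below 1.54 CPM. Daglb (-0.53), Lpcat1 (-0.76) and Plcg1 (-1.63) fell. Plcg1 was at a mere 1.59 to 2.41 CPM in young samples and had no call in any edgeR fit that left out a sample (adjusted p 0.0515 to 0.128). Mgll passed the filter on low counts by its aged samples (15 to 22 counts, against 3 to 10 in young). Plcg1 passed it by its young samples (24 to 41 counts, against 6 to 12 in aged). The calls of Mgll and Plcg1 are thus not independent of the filter. Per kilobase the highest gene of the list was Anxa1, which encodes an inhibitor of phospholipase activity, at 784 to 1213 CPM in young and 671 to 747 CPM in aged samples (log2 fold change -0.40, edgeR adjusted p = 0.186). With young A left out the calls were 5 higher and 3 lower, with young B or aged C 1 and 0, with aged A or aged B 2 and 0, and with young C 0 and 0. In those edgeR fits 5 to 7 genes were higher and 3 to 5 lower at an unadjusted p under 0.05, and Pla2g4a had an adjusted p over 0.05 without young C alone (0.0555). With all samples DESeq2 gave 4 higher and 3 lower, limma-voom 3 and 3, and edgeR without a filter on low counts 2 and 1. On genes with at least 10 counts in each sample edgeR gave 3 and 2. Over all alternatives with every sample (edgeR, DESeq2 or limma-voom) the adjusted p of some called genes exceeded 0.05. It reached 0.0729 for Mgll, 0.0637 for Acsl1, 0.0634 for Lpcat3, 0.0614 for Plcg1 and 0.0508 for Daglb.

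Of 8 other prostanoid synthases tested, 5 fell and 0 rose, with a median log2 fold change of -0.90, and edgeR at an unadjusted p under 0.05, DESeq2 and limma-voom each gave 5 lower and 0 higher. Hpgds, the haematopoietic PGD2 synthase, was at 17.1, 21.4 and 11.5 CPM in young A, B and C and at 4.55, 8.02 and 5.19 CPM in aged A, B and C. It fell by 1.49 on the log2 scale (standard error 0.30, edgeR adjusted p = 0.0123). Prxl2b, which encodes a PGF2alpha synthase, fell by 1.42 and passed in all 6 fits that left out a sample. Cbr1 (-1.16), Cbr2 (-1.16) and Akr1b3 (-0.65), carbonyl and aldo-keto reductases that can reduce prostaglandins among other substrates, fell too. Cbr2, the highest per kilobase among the genes of the list with a known length, was at 213 to 269 CPM in young samples and at 58.4, 180.0 and 84.1 CPM in aged A, B and C, and so was least reduced in aged B. The other PGE2 synthases, Ptges2 (-0.29) and Ptges3 (0.36), and Akr1c18 (0.49) did not pass. Without aged C 1 of the list was called, 2 without young C or aged A, 3 without young B, and 5 without young A or aged B.

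In the list named for prostanoid receptors other than Ptger4, 2 of 3 tested genes rose. The third, Pparg, encodes a nuclear receptor and did not pass (log2 fold change -0.55). Ptger2, which encodes the PGE2 receptor EP2, was at 9.24, 17.7 and 17.5 CPM in young A, B and C and at 34.0, 38.5 and 39.8 CPM in aged A, B and C. Its log2 fold change was 1.34 (standard error 0.24, edgeR adjusted p = 0.00944), and it passed without any 1 of the samples. Per kilobase Ptger2 was at 4.02 in young and 10.2 in aged macrophages, and Ptger4, the other PGE2 receptor that raises cyclic AMP, at 3.75 and 4.07. Ptgir, the prostacyclin receptor, rose by a log2 fold change of 0.86 from 3.34 to 4.20 CPM in young samples, and its adjusted p reached 0.143 when single samples were left out, staying under 0.05 only without young A.

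In the list named for receptors of leukotrienes, platelet-activating factor and resolvins, 4 of 7 tested genes rose and 0 fell. DESeq2 and limma-voom also gave 4 and 0, and edgeR at an unadjusted p under 0.05 gave 5 and 0. The median log2 fold change of the list was 1.10. Ltb4r1, which encodes the LTB4 receptor BLT1, was at 66.2, 66.4 and 59.8 CPM in young A, B and C and at 273, 179.5 and 219.5 CPM in aged A, B and C. Young samples hardly differed, all aged samples were far above them, and the log2 fold change was 1.80 (standard error 0.19, edgeR adjusted p = 0.00127). Fpr1 (1.70), a formyl peptide receptor and the highest of the list per kilobase, rose as well. So did Fpr2 (1.31), a receptor of lipoxins and resolvins among other ligands, and Ptafr (0.86), the receptor of platelet-activating factor. Ltb4r1 and Fpr1 passed without any 1 of the samples, and Fpr2 (0.0546) and Ptafr (0.0593) missed 0.05 only without young C. Cysltr1, a receptor of cysteinyl leukotrienes, was at 51.3 to 79.6 CPM in young and 51.6 to 71.0 CPM in aged samples and did not pass (log2 fold change -0.12).

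In the lists of other lipoxygenases with their partners and of other leukotriene enzymes, 4 and 7 genes were tested. Each had 1 gene lower and 0 higher, with 0 higher also in DESeq2, limma-voom and at an unadjusted p under 0.05 in edgeR. Gpx1, a glutathione peroxidase that removes lipid peroxides and the most abundant of the first list, fell by 0.69 on the log2 scale from 2810.0 to 3751 CPM in young samples. Mgst3 fell by 0.89. Mgst3 encodes a microsomal glutathione transferase of the small membrane protein family to which Ptges, Alox5ap and Ltc4s belong. Dpep2, a dipeptidase that converts LTD4 and the highest of the second list per kilobase, was at 337 to 434 CPM in young and 283 to 349 CPM in aged samples and did not pass (log2 fold change -0.35). Without aged B the first list had 1 gene higher and 0 lower after adjustment, with 1 higher and 2 lower at an unadjusted p under 0.05 in edgeR. Gpx1 was not called without young B, young C, aged B or aged C (edgeR adjusted p up to 0.156), nor Mgst3 without young C or aged C (up to 0.0944).

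Among 13 tested genes of breakdown and transport 1 rose and 1 fell. Cyp4f18, a cytochrome that inactivates LTB4 and the highest of the list per kilobase, was at 125 to 153 CPM in young and 200.4 to 373 CPM in aged samples, with a log2 fold change of 1.06 (edgeR adjusted p = 0.0156, up to 0.0767 without young C or aged C). Hpgd, which starts the breakdown of prostaglandins, was at 6.58, 16.1 and 5.48 CPM in young A, B and C and at 2.80, 3.25 and 4.45 CPM in aged A, B and C. Its log2 fold change was -1.42 (edgeR adjusted p = 0.0391), and it passed only without young A among the fits that left out a sample, with adjusted p-values up to 0.146. Without young B the log2 fold change was -0.78, and limma-voom gave an adjusted p of 0.0665.

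Several members and receptors are also made by other blood cells, so marker genes of these cells are given beside them. Fewer cells of a type and less RNA per cell cannot be told apart in bulk samples. Of 12 tested neutrophil markers, 4 (Cd177, Cxcr2, Lcn2 and Retnlg) rose and 0 fell, and their median log2 fold change was 0.43, with 1 lower at an unadjusted p under 0.05 and 0 lower in DESeq2 and limma-voom. The number higher was 0 without young C, 1 without young A, aged A or aged C, 2 without young B and 5 without aged B, and 1 marker was lower without young A. The 13 markers in the table summed to 717, 1217 and 1170.0 CPM in young A, B and C and to 1583, 926 and 1559 CPM in aged A, B and C, with S100a9 the most abundant and Elane at 0 in 4 samples. The part of neutrophils in the results was not tested.

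Mast cells carry Ltc4s, Alox5 and Hpgds. Of 7 tested mast cell markers, Hdc rose (log2 fold change 1.46), which encodes the enzyme that makes histamine in several myeloid cells, and the median was -1.05. Hdc did not pass without young C or aged C (edgeR adjusted p up to 0.0883). While 0 of the list were lower in edgeR and DESeq2, limma-voom had 2 lower, and edgeR without aged A had 5. The list summed to 174.8, 147.5 and 101.9 CPM in young A, B and C and to 405, 119 and 237 CPM in aged A, B and C. Of these Hdc made 76.6, 98.6 and 75.1 CPM in the young and 337, 118 and 236 CPM in the aged samples. The defining proteases were nearly absent from 2 aged samples: Cpa3 was at 23.5, 15.1 and 7.33 CPM in young A, B and C, at 17.7 CPM in aged A and at 0 in aged B and aged C. Basophil markers, with Prss34 the most abundant, summed to 1.99 CPM or less and eosinophil markers, with Siglecf, to 2.84 CPM or less in every sample. The part of these cells in the results was not tested.

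Platelets carry Ptgs1 and Tbxas1. Of the platelet markers 2 were tested, Ppbp rose (log2 fold change 2.02) and Pf4, which macrophages make too, did not pass (-0.31). Without young C the adjusted p of Ppbp was 0.0586. Itga2b, a defining marker, was at 0.763 CPM or less in every sample. The platelet markers summed to 1124, 1699 and 1695 CPM in young A, B and C and to 1417, 3910.0 and 2339 CPM in aged A, B and C, most of it from Ppbp and Pf4. Their part in the results was not tested.

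Of 10 tested resident macrophage markers 3 fell (C1qa, C1qb and C1qc) and 0 rose, with a median log2 fold change of -0.36 and C1qb the most abundant. In the same list Cd163 (1.46), Lyve1 (1.46) and F13a1 (0.42) were higher on average and did not pass. Cd163 was at 140.8 CPM in aged B against 27.6 and 38.8 CPM in aged A and C, and Lyve1 at 25.2 CPM in aged B against 3.15 and 7.84 CPM, with 19.6 to 34.8 CPM and 3.05 to 5.64 CPM in young samples. F13a1 was at 526 to 807 CPM in young and 852 to 907 CPM in aged samples. At an unadjusted p under 0.05 2 were higher and 4 lower in edgeR, limma-voom gave 0 higher and 3 lower and DESeq2 1 higher and 4 lower after adjustment. Without aged B 0 were higher in edgeR at an unadjusted p under 0.05. In edgeR 2 rose without aged A, and 0 fell without young C or aged C, with 3 lower at an unadjusted p under 0.05. The list, most of it from the C1q genes, summed to 6231, 6880.0 and 6256 CPM in young A, B and C and to 3056, 4859 and 3788 CPM in aged A, B and C. Of 6 monocyte markers Vcan alone rose in edgeR (log2 fold change 2.13), where DESeq2 gave 3 higher, and Chil3 was the most abundant. Aged B held keratinocyte markers, at 141.5 CPM in sum against 1.76 to 8.90 CPM in the other 5 samples, and fibroblast markers, at 119.9 CPM against 13.2 to 41.1 CPM, led by Krt14 and Col3a1. Both tested keratinocyte markers, Krt14 (8.29) and Sfn (2.36), rose on the log2 scale in edgeR, while limma-voom gave 0 higher and DESeq2 1. Without aged B Krt14 was at 3.25 (edgeR adjusted p = 0.0484), on 11 and 14 counts in aged A and C against 0 to 3 in young samples. Krt14 entered the test by its aged samples alone, so nothing is drawn from that pass. Sfn did not pass without aged B (edgeR adjusted p = 0.0980). Neither Krt14 nor Sfn passed without young B or young C, nor Sfn without aged A (0.0531), with adjusted p-values up to 0.131. Without aged B, the log2 fold changes were 1.44 for Ptgs2 and 1.04 for Ptges, and both were called. That of Ltc4s was 0.88, and it was not called (edgeR adjusted p = 0.0598). The part of resident macrophages, monocytes, keratinocytes and fibroblasts in the results was not tested.

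Among the sort markers Itgam rose (log2 fold change 0.99, edgeR adjusted p = 0.00735) and passed in every fit that left out a sample. Adgre1 fell (-0.69, edgeR adjusted p = 0.0292), with every aged below every young sample, but did not pass without young B (0.0900), young C (0.113), aged A (0.0751) or aged C (0.109). Ptprc (0.26) and Fcgr1 (0.15) did not pass, and the part of these shifts in the results was not tested. Of the general macrophage markers Cd14 rose (log2 fold change 1.10), but did not pass without young C or aged C (edgeR adjusted p up to 0.0549). Lyz2, the most abundant, did not pass (-0.68). Of 3 tested endothelial markers Pecam1, the most abundant and also made by myeloid cells, rose (log2 fold change 1.69). Kdr (-0.40) and Vwf (-0.38) did not pass, and the median of the list was -0.38. Ccr7 (1.54) of the dendritic cell list and Cd207 (-1.02) of the Langerhans cell list did not pass. Without young A, 2 of the dendritic cell list were higher in edgeR, and 1 of the Langerhans cell list was higher without young A, young B or aged C and without a filter on low counts. Markers of T and NK cells, with Nkg7 the most abundant, summed to 3.50 CPM or less and those of B cells, with Ms4a1, to 0.764 CPM or less in every sample.

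**Figure D5:**
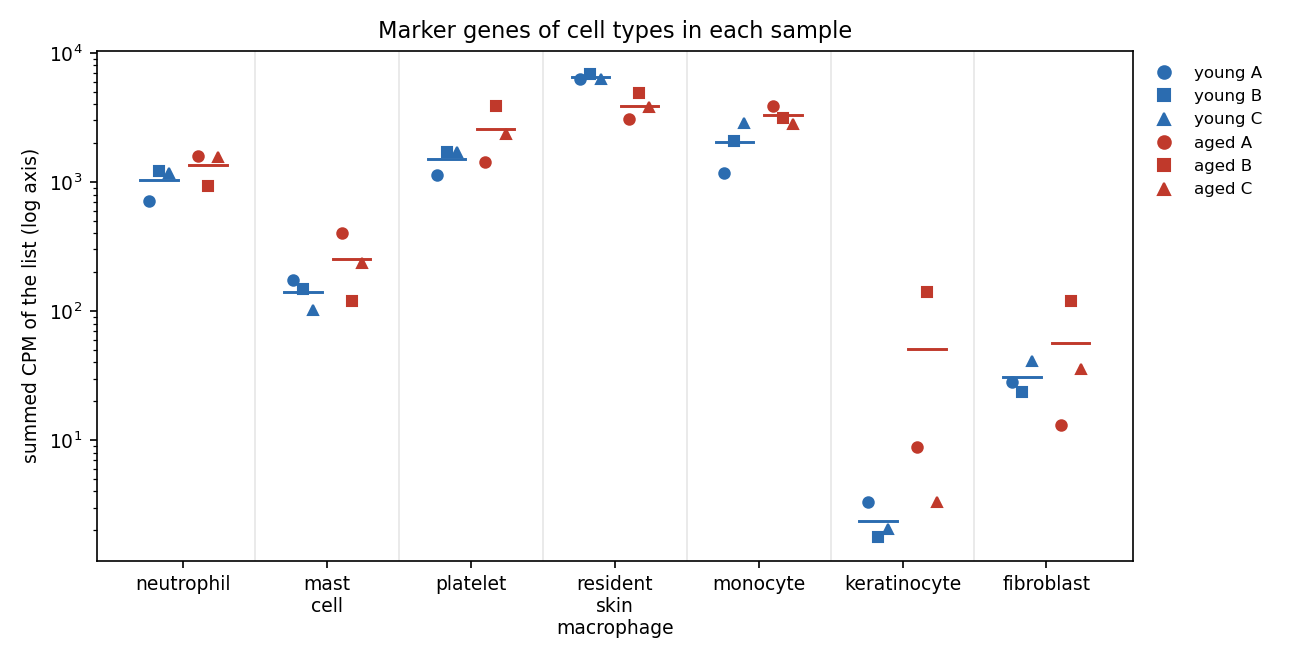
Summed CPM of the marker genes of each cell type on a log axis, with a point for each of the 3 young (blue) and 3 aged (red) samples and a line at the mean of each age. Keratinocyte and fibroblast markers are highest in aged B (141.5 and 119.9 CPM), and the sum of the resident macrophage markers, most of it from the C1q genes, is lower in every aged than in every young sample.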

How the data were processed

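Sorted Day 3 wound macrophages of 3 young and 3 aged samples had been sequenced. STAR 2.7.3a alignments were quantified by the authors in Partek Flow on Ensembl transcripts (release 102, mm10), and they deposited expected counts per gene without normalisation. Their second table, with DESeq2-normalised values and their own fold changes and p-values, was not used. Between 30.7% and 34.0% of the expected counts in a sample were not whole, and all were rounded.

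In R 4.3.3, edgeR 4.0.16 was used with TMM scaling (factors 0.904 to 1.11), filterByExpr by age and its quasi-likelihood test for age, without a block, with Benjamini-Hochberg adjustment over 11878 genes. Genes passed at an adjusted p under 0.05, and the 2-fold rule asked for an absolute log2 fold change over 1. Intervals cover 95%, and leave-one-out fits dropped 1 sample each. Levels between genes were set per kilobase of the longest GENCODE transcript. DESeq2 1.42.0, limma-voom (limma 3.58.1), other scaling, other filters and the set letter as a block were alternatives. The procedure was also tried on simulated data, from which no value is given here. Plots and motif searches used pandas 2.3.3 and matplotlib 3.10.9 under Python 3.11.15.

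All 10 members are named with their values. Of each pathway list the genes that passed and the highest per kilobase are named, and of each marker list the most abundant. Other marker genes, Ptges2, Ptges3, Akr1c18, Pparg, Cysltr1 and the genes overlapping a member were added for context after their values were seen. The members and lists were chosen with earlier results of these data known. Within an age, samples varied beyond sampling noise and were kept apart. Positions are on mm10. One gene of a marker list is not reported here.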

Additional observations from a re-analysis of the deposited data

How the results depend on the processing

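Ptgs2, Ptges and Ltc4s stayed higher in aged macrophages and under an adjusted p of 0.05 with DESeq2 size factors, DESeq2, limma-voom, an absent filter, a minimum of 10 counts per sample and the set letter as a replicate block, with adjusted p-values of 0.00147 to 0.0401. Leaving out single samples changed more: the number of members called ran from 0 to 3, the number of other pathway genes called from 5 to 24 (23 with all samples), and the number of all genes called at over 2-fold from 213 to 1503 (1044 with all samples). Why single samples weigh so much was not tested. Without the 2-fold rule 2103 genes passed. The log2 fold change of Ptger4 ranged from -0.039 without young A (edgeR adjusted p = 0.924), where it turned, to 0.311 without young B (0.449), and the cause was not tested; every other member kept its sign in every alternative. With the replicate block 1056 genes were called, 18 pathway genes passed (Hpgd not, at 0.0505) and 4 members passed, the fourth being Tbxas1 (log2 fold change -0.59, edgeR adjusted p = 0.0412, against 0.0753 to 0.113 in the 5 other alternatives with all samples). With the block the arachidonic acid list had 2 higher and 2 lower, 1 of the neutrophil markers was higher (4 without it), 1 resident macrophage marker was higher and 5 lower (0 and 3 without it), and 2 dendritic cell markers were higher (0 without it). Whether the set letters pair the samples could not be told from 3 samples an age. Deviations from the mean of an age correlated across genes at 0.181, -0.0206 and 0.114 between samples of set A, B and C. Between samples of different letters the correlations ran from -0.215 to 0.138, and not every sample correlated best with its own letter. With 3 samples an age, Ptgs1 (40 to 188 counts) and Ltc4s (94 to 329 counts) had the least depth among the members.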
